A study of Mus musculus with 10 samples.

Results

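Carbonic anhydrases are zinc enzymes that turn carbon dioxide and water into bicarbonate and a proton, and back again. In fat cells they are known for supplying bicarbonate to the carboxylases that begin fatty acid synthesis, and at the cell surface they help to carry acid out of the cell. Car9 is a textbook target of the hypoxia-inducible factors (HIF), whose breakdown needs iron, and an iron chelator is known to stabilise them. The 10 carbonic anhydrases described here, Car2, Car3, Car4, Car5b, Car6, Car8, Car9, Car12, Car13 and Car14, were selected by name from the gene names of the array's non-control probes. They were found with 12 of the 55681 probes. Of the genes, 8 have 1 probe each, and Car4 and Car8 have 2 probes each. Which genes of the family to include was decided with results of these arrays known, so every count of members below is a description.

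RNA of epididymal white adipose tissue (eWAT), the fat pad along the epididymis, was measured in 10 adult male mice of 1 group. The mice, given as C57BL/6J in one label field and as C57BL/6JOlaHsd in another, entered the study aged 9 weeks. They received a purified low fat diet for 3 weeks and then a high fat diet for 12 weeks at 29°C, followed by desferrioxamine (DFO), an iron chelator, injected daily for 5 days at 100 mg per kg body weight. Food was taken away 2 h before the mice were killed. Each mouse was labelled with the dye Cy5 and put on an array of its own, against a Cy3 pool of equal RNA amounts from all mice of the wider study, these mice and the controls included. No array of a control mouse was analysed here, and dyes were not swapped, so a log2 ratio of mouse to pool also holds the dye bias of its probe. For that reason no ratio was tested against 0, and no statement on the effect of DFO can be made. Mice are called by the replicate number in their labels, and the arrays lay on 5 slides of 2 arrays each. Nothing in the labels tells the 10 mice apart, but in many genes the values of mice 4, 5, 6 and 7 lie together at one end, as is described below without a mean or a test over these mice.

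The sequences of the probes on which the results turn are shown first, since 2 of them bear on how a value is read. Each is a stretch of 30 of the 60 bases of a probe, read 5′ to 3′, with positions on mm9, the build of the array's annotation. Whether the positions are coding was not looked up here. The Car9 stretch covers chr4:43526518-43526547 on the plus strand. Its capitals mark the bases that lie in words of 16 bases also found in RefSeq promoter windows of other places in the genome. Of the 12 probes, that of Car9 shared such a word with the most windows, 6 of 32851, and 2.25% of all probes on the array share one with as many or more. No other probe on the array holds a 16-base word of it.

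Car9: TTGAATGCTGGGATTACAGgaatgcaccat

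The Car4 stretches are shown because the 2 probes of this gene gave ranges of different size. Probe 1, the brighter, covers chr11:84779506-84779535 with its stretch, and the capitals mark the polyadenylation signal AATAAA. Probe 2 lies before it on the plus strand, with its stretch at chr11:84777667-84777696, and has no such signal. Car3 is shown as the gene with the widest range, with its stretch at chr3:14871781-14871810, also on the plus strand.

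Car4 probe 1: ccaattaaatgaAATAAAatatggatatgt

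Car4 probe 2: tgcacctgcactggtcaaatgggaatgaca

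Car3: acatgcaaccgcagtgccttttgacatgat

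RefSeq promoter windows of 300 bases (GRCm38.p6) were matched by symbol for 6 of the 10 members, Car4, Car5b, Car6, Car9, Car12 and Car14. They were searched on both strands for ACGTG and GCGTG, the cores of the motif that HIF is known to bind. The window of Car9 holds ACGTG on the minus strand, printed as CACGT in capitals in the 250 bases before the start (chr4:43506776-43507025, plus strand), where it begins 18 bases before the start.

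Car9 promoter: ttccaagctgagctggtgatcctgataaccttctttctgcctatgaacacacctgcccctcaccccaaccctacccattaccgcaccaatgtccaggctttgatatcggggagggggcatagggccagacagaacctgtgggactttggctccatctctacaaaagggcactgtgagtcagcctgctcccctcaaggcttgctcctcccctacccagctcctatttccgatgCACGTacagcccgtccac

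ACGTG was present in 4 of the 6 windows, those of Car4, Car6, Car9 and Car14, against 19.6% of all windows. GCGTG was present in 2, with 1 match in Car6 and 5 matches in Car5b, against 32.4% of all windows. The motifs share the letters CGTG but cannot match at the same place, and 43.8% of all windows hold at least 1 of them. Car12 holds neither. These matches are letters in a window and say nothing of binding.

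A probe was counted as expressed when its spot was well above background, by the flag of the scanner software, in both channels on at least 5 arrays. By this filter 9 of the 12 probes, from 8 of the 10 genes, were expressed, and 7 passed on each of the 10 arrays in Cy5 and Cy3 alike. Car6, the secreted enzyme of saliva, missed it in Cy5 in mouse 9, and Car12 missed it in Cy5 in mouse 7. Car8, a relative that lacks the catalytic activity, was not well above background: 1 probe was so on 0 arrays, and the other in Cy5 in mouse 6 alone. Car14, a membrane-bound enzyme, passed in Cy5 in mice 2, 4 and 7 and in Cy3 on the arrays of mice 2 and 4. On the array of mouse 4 its processed signal was 117 in Cy5 and 120 in Cy3, while in mouse 2 it was 84.6 in Cy5 and 44.7 in Cy3. The high Cy5 value of Car14 in mouse 4 thus came with an equally high value of the pool on the same spot. No spot of a member was saturated or marked as an outlier.

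**Figure D1:**
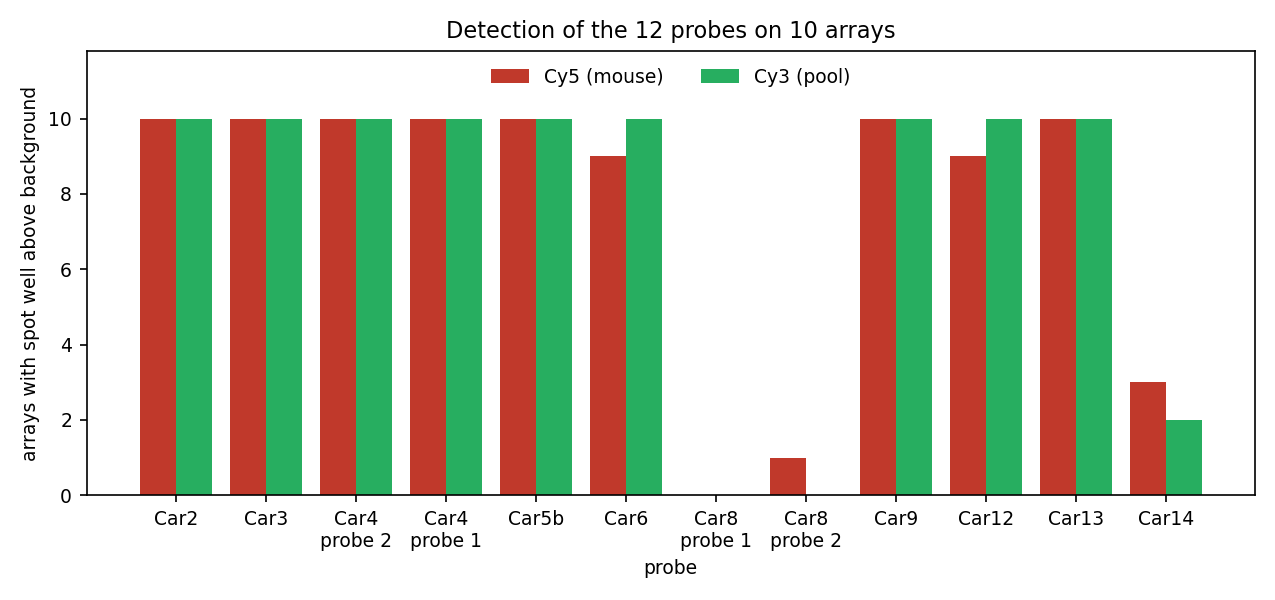
Number of the 10 arrays on which the spot of each of the 12 probes was well above background, in Cy5 (mouse, red bars) and in Cy3 (pool, green bars). Car8 and Car14 stand apart with at most 3 arrays, and every other probe reaches 9 or 10 arrays in both channels.

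Of the members, 3 are cytosolic enzymes, Car2, Car3 and Car13. They are neighbours on chromosome 3 in the RefSeq gene order (Car13, Car1, Car3, Car2), with 0 other protein-coding genes between them. Their patterns over the 10 mice were not alike. Car3, the carbonic anhydrase of adipocytes and slow muscle, had the widest range of all members. Its log2 ratio of mouse to pool was lowest at −3.88 in mouse 4, had a median of 0.06 and was highest at 1.42 in mouse 9. Mice 4, 5, 6 and 7 had values from −3.88 to −2.77 and the other mice from −0.34 to 1.42, so that 2.43 log2 units lay between neighbouring values across this gap. The SD between mice was 2.18, at the 99.99th percentile of all 25049 probes tested (median SD 0.18).

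**Figure D2:**
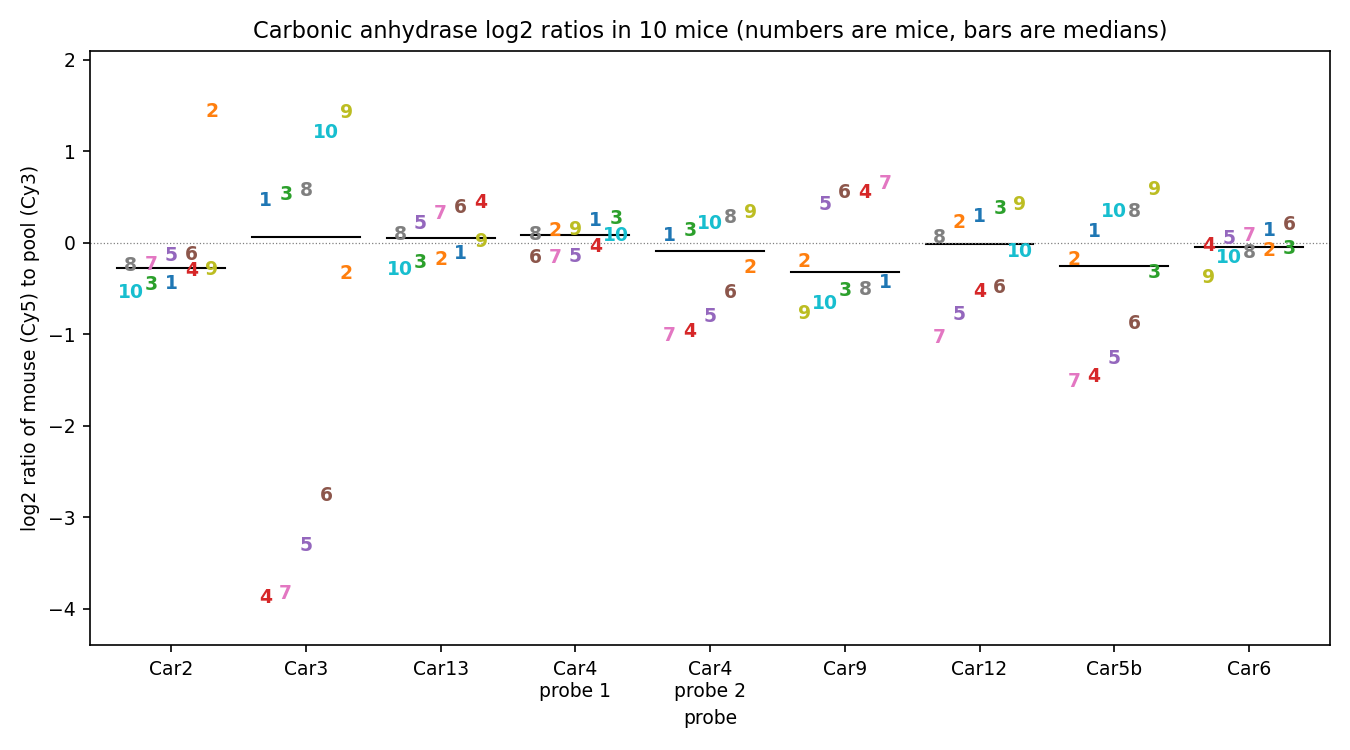
Log2 ratio of mouse (Cy5) to pool (Cy3) on the y axis for the 9 expressed probes of 8 genes, where each number is a mouse and each bar the median of 10 mice. Mice 4 to 7 lie at the bottom for Car3, Car4, Car5b and Car12 and at the top for Car9 and Car13, and mouse 2 alone lies high for Car2.

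For Car3 both channels differed between arrays. The normalized log2 Cy5 intensity, which is the mouse's own RNA, was 13.65 to 14.63 in mice 4 to 7 and 16.56 to 17.51 in the other mice. The log2 Cy3 intensity of the pool, which is the same RNA on every array, was 17.39 to 17.59 on the arrays of mice 4 to 7 and 16.09 to 16.89 on the others. Before normalization the Cy3 spot read 116304 to 149636 on those 4 arrays and 51429 to 90129 on the others. The range of the ratio, 39.5-fold, is therefore wider than that of Cy5 alone, 14.6-fold, while Cy3 spanned 2.83-fold. Mice 4 to 7 were also the lowest 4 in Cy5 alone. Among all probes tested, 3.91% had their 4 highest normalized Cy3 values on the arrays of mice 4 to 7, and 0.607% had their 4 lowest there. For the scanner software's processed Cy3 signal, 44.6% had their 4 highest there, so brighter Cy3 spots on these arrays were common in that signal.

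**Figure D3:**
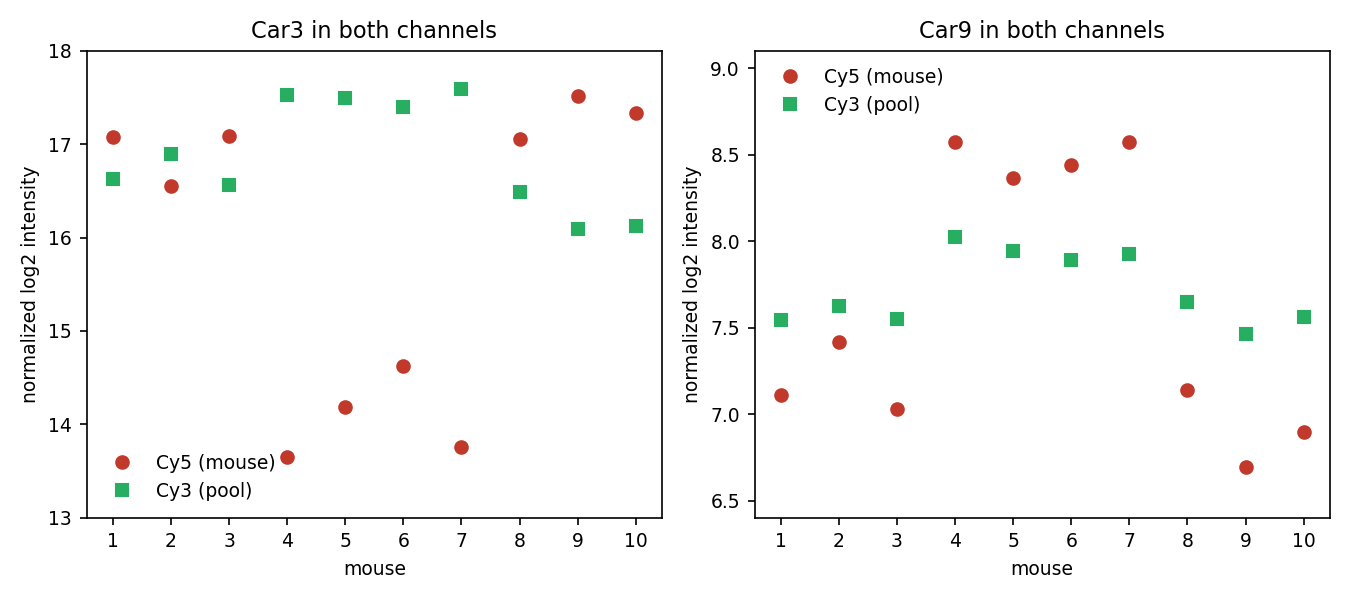
Normalized log2 intensity of Car3 (left) and Car9 (right) on each of the 10 arrays, with Cy5 (mouse) as red circles and Cy3 (pool) as green squares. For Car3 the pool is highest on the arrays of mice 4 to 7, where Cy5 is lowest, and for Car9 both channels are highest there.

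Car13 went the other way from its neighbour Car3. Its log2 ratios ran from −0.29 in mouse 10 over a median of 0.05 to 0.44 in mouse 4. Mice 4 to 7 had 0.21 to 0.44 and the other mice −0.29 to 0.10. This range of 0.73 log2 units (1.65-fold) was among the smaller ones. With median centring in place of loess it was 1.19, and mice 4 to 7 were no longer the highest 4. Car2, the most widespread of the cytosolic enzymes, showed neither order. Its values ran from −0.55 in mouse 10 over a median of −0.27 to 1.44 in mouse 2, and the next highest value was −0.12 in mouse 6. Without mouse 2 the range was 0.42 in place of 1.98 log2 units and the SD 0.15 in place of 0.57. In the scanner software's own ratio mouse 2 was likewise highest, at 1.67 on the log2 scale.

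Among the members bound to membranes, Car4 is held by a lipid anchor, and Car9, Car12 and Car14 cross the membrane with the active site outside. Car9 was highest where Car3 was lowest. Its log2 ratio ran from −0.77 in mouse 9 over a median of −0.32 to 0.65 in mouse 7. Mice 4, 5, 6 and 7 had 0.42 to 0.65 and the other mice −0.77 to −0.21, with a gap of 0.63. The processed Cy5 signal of Car9 was between 65.3 and 576. The range of its ratio was 1.42 log2 units with the offset of 50, 1.98 with an offset of 0, and 2.32 in the scanner software's ratio, which also differs in background subtraction and normalization. As for Car3, the pool's spot was brighter on the arrays of mice 4 to 7, with a log2 Cy3 of 7.89 to 8.02 against 7.46 to 7.65 on the others. In Cy5 alone the values were 8.36 to 8.57 in mice 4 to 7 and 6.70 to 7.42 in the other mice, a range of 3.67-fold over all mice. What RNA the repeated letters of the Car9 probe printed above bind beside Car9 was not tested.

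Car12 had the opposite order to Car9. Its log2 ratio was lowest at −1.04 in mouse 7, had a median of −0.02 and was highest at 0.42 in mouse 9. Mice 4 to 7 lay between −1.04 and −0.49, below the other mice at −0.09 to 0.42. In mouse 7 its Cy5 spot, with a processed signal of 23.5, was not well above background. By the scanner software's looser positive and significant flag it was detected in Cy5 on all 10 arrays. The range of Car12 depends on the offset, with 2.44 log2 units at an offset of 0. Its range in the scanner software's ratio was 3.18 log2 units against 1.46 here.

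The 2 probes of Car4 shared their lowest 4 mice but not the size of the range. Probe 1 ran from −0.16 in mouse 6 over a median of 0.08 to 0.26 in mouse 3, and probe 2 from −1.01 in mouse 7 over a median of −0.09 to 0.33 in mouse 9. In both, mice 4 to 7 were the lowest 4, with −0.16 to −0.04 for probe 1 and −1.01 to −0.54 for probe 2. The range was 0.43 log2 units by probe 1 and 1.34 by probe 2, and it was 0.83 and 1.33 in Cy5 alone and 0.81 and 1.51 with median centring in place of loess. In the last case mice 4 to 7 were no longer the lowest 4 by either probe, and in the deposited normalized values they were not so by probe 1. Which transcripts of Car4 each probe reads was not tested.

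**Figure D4:**
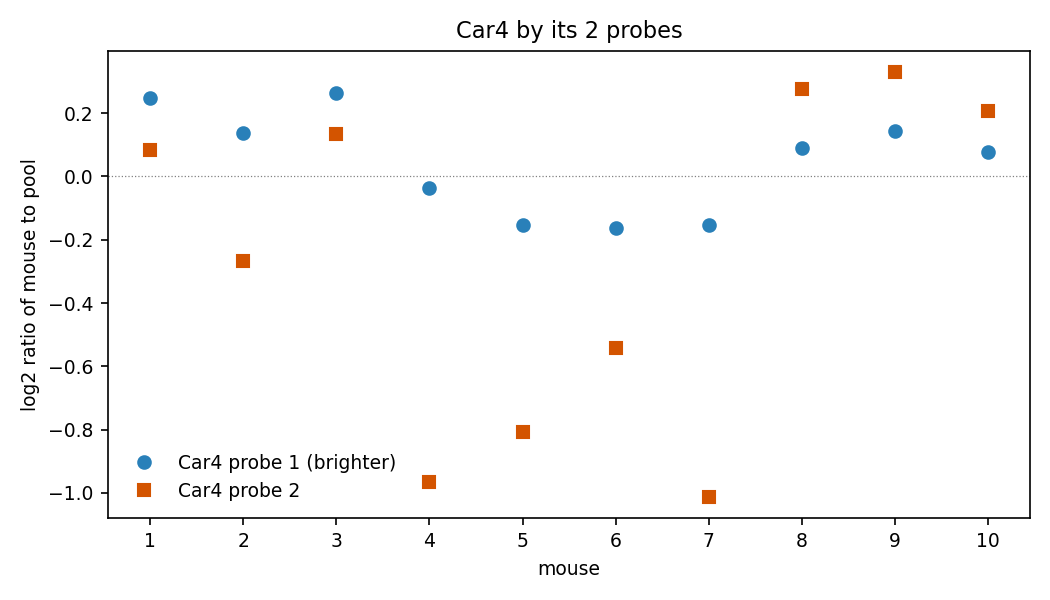
Log2 ratio of mouse to pool for Car4 in each of the 10 mice, by probe 1 (blue circles, brighter) and probe 2 (orange squares). Mice 4 to 7 are lowest by both probes, with values down to −0.16 by probe 1 and −1.01 by probe 2.

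Car5b, the mitochondrial enzyme, had the second largest SD of the members, 0.80. Its log2 ratios ran from −1.51 in mouse 7 over a median of −0.25 to 0.59 in mouse 9. Mice 4 to 7 lay between −1.51 and −0.88 and the other mice between −0.33 and 0.59. Its pool channel spanned only 0.23 log2 units over the arrays, against 1.95 in Cy5. This order was lost with median centring in place of loess. Car6 ran from −0.38 in mouse 9, where Cy5 was not well above background, over a median of −0.05 to 0.20 in mouse 6, with mice 4 to 7 among the others.

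Over the 9 expressed probes, mice 4 to 7 thus held the lowest 4 ratios for 5 (Car3, Car5b, Car12 and both of Car4), the highest 4 for 2 (Car9 and Car13), and neither for 2 (Car2 and Car6). Of all probes tested, 23.2% had their lowest 4 and 19.2% their highest 4 in these mice. On 2 slides a mouse of these 4 lay beside another mouse. The sign of the difference within such a slide is fixed by the order just given, so only its size is described. Mouse 4 was below mouse 3 on the second slide by a log2 ratio difference of −4.41 for Car3, −1.13 for Car5b and −0.92 for Car12, and above it by 1.07 for Car9. Mouse 7 was below mouse 8 on the fourth slide by −4.41 for Car3, −1.86 for Car5b and −1.10 for Car12, and above it by 1.15 for Car9. For Car13 the differences were 0.65 and 0.23.

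To ask whether a gene varied between mice by more than the pool varied between arrays, the variance of log2 Cy5 was compared with that of log2 Cy3 by the Pitman-Morgan test over all 25049 probes, with Benjamini-Hochberg adjustment. Cy5 varied more for 8 of the 9 expressed member probes, against 59.7% of all probes tested, and Cy3 varied more for 0. Car9 had an SD of 0.77 in Cy5 and 0.20 in Cy3 (adjusted p = 3.63e-07 by the Pitman-Morgan test over 10 arrays). Car2 had 0.62 and 0.07 (adjusted p = 1.38e-06 by the same test), and without mouse 2 it still passed (adjusted p = 0.0122 by the same test), with the log2 of its SD ratio down from 3.16 to 1.62. Car3, with 1.61 and 0.59, gave 1.75e-05 as its adjusted p. The adjusted p was 6.55e-06 for Car5b, 7.34e-05 for probe 2 of Car4, 1.41e-04 for Car6 and 2.59e-04 for Car12 by this Pitman-Morgan test. Car13, with an adjusted p of 0.00487, missed the threshold with the slide as a block (0.117) and without normalization between arrays (0.128), both by the Pitman-Morgan test. Probe 1 of Car4 did not pass, with SDs of 0.27 and 0.18 and an adjusted p of 0.111 by the Pitman-Morgan test. The slide of the array, tested with limma's moderated F test on the log2 ratio, was called for 0% of all probes tested, with 1010 at an unadjusted p under 0.05 and none of the member probes among them.

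**Figure D5:**
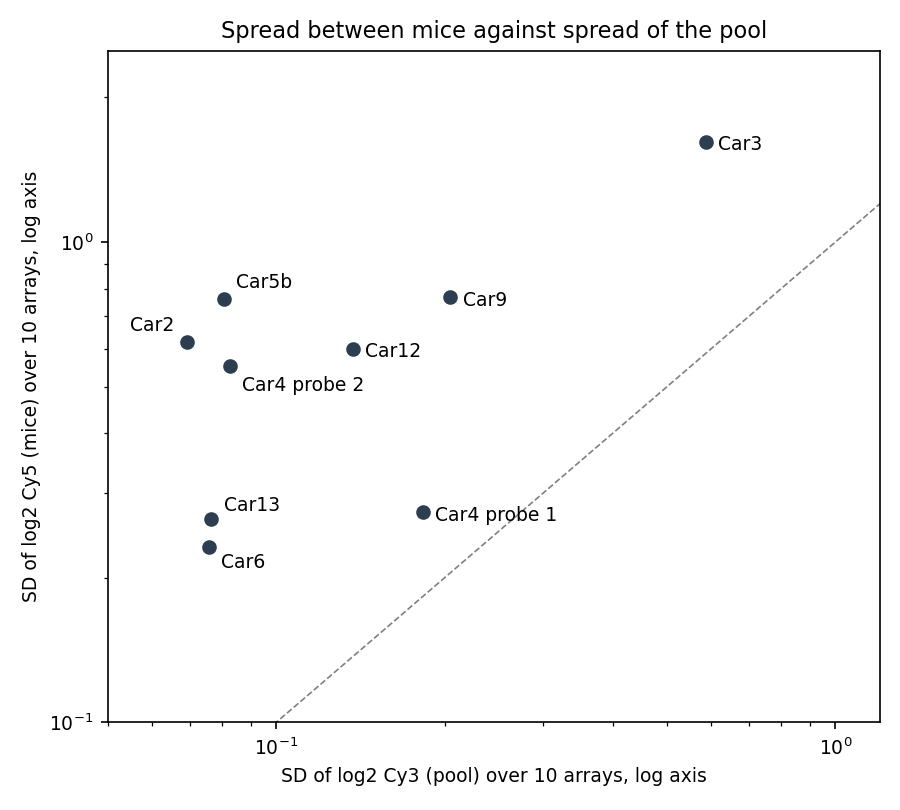
SD of log2 Cy5 between mice (y axis) against SD of log2 Cy3 of the pool between arrays (x axis), both on log axes, for the 9 expressed member probes. The dashed line marks equal SDs, all 9 points lie above it, and probe 1 of Car4 lies nearest to it.

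For Car2, Car3 and Car5b, the expressed members with the largest SD of the ratio, the genes with the most alike pattern were looked for among 11222 genes, as those with the smallest mean absolute gap over the 10 mice after each gene's mean was taken off. Those nearest to Car3 were Cfd (gap 0.32), the adipocyte serine protease adipsin, then Cyp2e1 (0.35), Adrb3 (0.37), the β-adrenergic receptor of fat, Timp4 (0.39), a metalloproteinase inhibitor, and Pck1 (0.41), the enzyme of glyceroneogenesis. Cfd itself ran from −4.69 to 1.45. Nearest to Car5b were Prkd1 (0.08), Rhbdl1 (0.08), Fas (0.09), a death receptor, Opn3 (0.10) and Akap12 (0.10). Nearest to Car2 were Inhba (0.11), the activin subunit, Mns1 (0.11), a structural protein of cilia and flagella, Tmem25 (0.12), Cdc14a (0.13) and Epb4.1l4b (0.13). All 5 of these had their highest log2 ratio in mouse 2, between 1.11 and 1.48, and none was above 0.01 in another mouse. Car9 was added after the values had been seen, and its nearest genes were Coro1c (0.05), Naip6 (0.05) and Man1c1 (0.05).

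Other genes of the family were read from a fixed list. Car1, Car7, Car11 and Car15 were expressed, and Car5a and Car10 were well above background on 0 arrays in either channel. For Car1 this holds for its brighter probe, which is the one read here. The other probe of Car1 missed the filter, with 2 arrays well above background in Cy5 and 0 in Cy3. Over the 10 mice, log2 ratios spanned −0.42 to 0.15 for Car1, which lies between Car13 and Car3, and −0.19 to 0.49 for Car7. Car7 and Car11 had their lowest 4 ratios in mice 4 to 7, as had 23.2% of all probes tested, and Car1 and Car15 did not. The Pitman-Morgan test called 0 of these 4 genes (adjusted p from 0.0906 for Car1 to 0.681 for Car15), against 59.7% of all probes tested. Ptprg, a receptor phosphatase with a carbonic anhydrase-like domain, was called, with −0.85 to −0.57 in mice 4 to 7 and −0.01 to 0.41 in the other mice. Ptprz1, the other receptor phosphatase with such a domain, was called too (adjusted p = 6.55e-05 by the Pitman-Morgan test), with −0.72 to −0.25 in mice 4 to 7 and −0.38 to 0.44 in the other mice, and these ranges overlap.

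The expressed carboxylases that use bicarbonate had the order of Car5b. Of the 9 genes of bicarbonate-using enzymes on the list, the 7 expressed are those of carboxylases or their subunits, which Cps1 and Cad are not. All 7 had their lowest 4 ratios in mice 4 to 7, and the Pitman-Morgan test called all 7. Cps1 was well above background on 0 arrays. Cad, well above background in Cy5 on 10 arrays and in Cy3 on 0, lacked this order. It had 0.03 to 0.19 in mice 4 to 7 and 0.01 to 0.19 in the other mice. Pcx, the mitochondrial pyruvate carboxylase, had −1.94 to −0.95 in mice 4 to 7 and −0.12 to 0.27 in the other mice. Acaca, which makes malonyl-CoA for fatty acid synthesis, had −1.25 to −0.92 and −0.24 to 0.54, and Acacb, its mitochondrial-surface relative, −1.50 to −0.89 and −0.23 to 0.53. The median of the mean log2 ratios of the 7 was −0.40, against −0.01 over all probes tested. Of all probes tested, 59.7% were called and 23.2% had their lowest 4 in mice 4 to 7.

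Of the 14 bicarbonate transporters listed, 7 were expressed, of which 4 were called, 2 had mice 4 to 7 lowest and 1 had them highest (median −0.05). Of all probes tested, 59.7% were called, 23.2% had these mice lowest and 19.2% had them highest. Slc4a4, the sodium bicarbonate cotransporter, was highest in mouse 2 at 0.79, with every other mouse below 0, and lowest in mice 4 to 7 at −1.03 to −0.51. Slc26a3, a chloride bicarbonate exchanger of epithelia, was well above background in Cy5 on 1 array, that of mouse 2, with a log2 ratio of 1.47. Slc9a3, the sodium proton exchanger of absorptive epithelia, was likewise well above background in Cy5 on 1 array, with 1.99 in mouse 2. Neither Slc26a3 nor Slc9a3 passed the filter for expression, so in Cy5 each is seen only through the mouse in which it is high. The pool was well above background on 10 arrays for both. Outside mouse 2 the highest log2 ratio was −0.43 for Slc26a3 and −1.01 for Slc9a3. Of the expressed bicarbonate transporters, Slc4a3 and Slc4a4 were highest in mouse 2, and Slc26a4 was lowest there, at −0.24.

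The proton and lactate transporters counted 8 expressed of 10 (median 0.01). Of these 5 were called, 0 were lowest and 2 highest in mice 4 to 7, beside 59.7%, 23.2% and 19.2% of all probes tested. The highest in these mice were the proton pump subunits Atp6v1a, with 0.83 to 1.03 against −1.03 to −0.20, and Atp6v0a1, with 0.47 to 0.56 against −0.82 to 0.28. Slc16a3, the lactate exporter that HIF is known to drive, had 0.65 to 0.86 in mice 4 to 7 and −0.01 to 0.85 in the other mice, and these ranges overlap.

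The 20 HIF targets, all expressed, did not share 1 order. The test called 17, and mice 4 to 7 were lowest for 7, highest for 5 and neither for 8 (median −0.02). Over all probes tested, the shares were 59.7% called, 23.2% lowest and 19.2% highest. Slc2a1, a glucose transporter, had 0.91 to 1.45 in mice 4 to 7 and −0.47 to 0.48 in the other mice, the order of Car9. Pgk1 and Pdk1, enzymes of glycolysis and of pyruvate use, had it too, with 0.62 to 0.80 and 0.27 to 0.48 in mice 4 to 7. Vegfa, the angiogenic growth factor, had the order of Car12, with −1.02 to −0.60 against −0.09 to 0.67, as had Bnip3, a mitophagy receptor, with −1.72 to −0.75 against 0.16 to 0.58.

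Markers of the cells that a fat pad holds moved with the same mice. In a piece of tissue, fewer cells of a type and less RNA per cell cannot be told apart. Of all probes tested, 23.2% were lowest and 19.2% highest in mice 4 to 7. All 10 adipocyte markers tested were lowest in mice 4 to 7, and the mean log2 ratio of the list was −2.24 to −1.25 in these mice and −0.06 to 0.58 in the others. Retn was left out of the list since 1 or more arrays lacked a value for it. The 6 expressed macrophage markers of 7 on the array were all highest in mice 4 to 7, with a list mean of 0.78 to 1.14 against −1.38 to −0.29. Cd163, the marker that missed the filter, was well above background on 7 arrays in Cy5 and on 3 in Cy3. It went the other way, with −0.28 to −0.11 in mice 4 to 7 and 0.15 to 0.60 in the other mice. Of 9 endothelial markers 8 were lowest there, with a list mean of −0.96 to −0.62, and so were all 5 expressed red blood cell markers of 9 on the array, where Rhag and Ahsp were well above background on 0 arrays. Of the 7 mesothelial markers 4 were lowest in mice 4 to 7, with a list mean of −1.65 to −1.15 against −0.60 to 0.23. The part of these cells in the values of Car3, Car5b, Car9, Car12 and Car13 was not tested.

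Mouse 2, high for Car2, had the highest value of the epithelial keratins on the mesothelium list, with 1.91 for Krt8 and 1.85 for Krt18, while the mesothelial markers Upk3b and Lrrn4 were at −0.98 and −0.98. It also had the least negative values of the sperm markers Prm1 (−1.37) and Prm2 (−0.79). Of the 9 epididymis markers, 2 were expressed, Lcn12 and Rnase10, and Lcn5, Lcn8, Lcn9, Defb21 and Spink13 were well above background on 0 arrays in either channel. Crisp1 and Adam7 were well above background in the pool on all 10 arrays, and in Cy5 on 0 arrays and on 1 array. Adam7 had its highest log2 ratio in mouse 2, at −0.11 against −0.63 in the next mouse. Lcn12, Rnase10 and Crisp1 were highest in mouse 3 instead. Lcn12 had 0.40 there and −0.09 in mouse 2, and Rnase10 had 1.12 and 0.52. Of the skeletal muscle list 1 of 9 was expressed. What tissue gave the Car2 value in mouse 2 was not tested.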

How the data were processed

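Total RNA of eWAT of 10 mice was measured on Agilent 8x60K arrays. The authors deposited scanner files of Agilent Feature Extraction 10.7.3.1 with raw intensity values, flags, and log10 ratios of background-subtracted, dye-normalized signals. They also deposited a table of log2 normalized values of 30733 spots, whose method is not given in the sources used here, and which served for differences between mice. Mean signals were corrected for the median local background (normexp, offset 50), normalized by loess within arrays and Aquantile between arrays (limma 3.58.1, R 4.3.3), and averaged per probe name. Of 25137 expressed probes, 25049 had values on all arrays and were tested with the Pitman-Morgan test (two-sided, Python 3.11.15, scipy 1.17.1) and limma's F test over slides, with Benjamini-Hochberg adjustment at 0.05. Both steps were run on simulated normal values with large planted effects, which checks the code and not how well spreads like those seen here are found. Median Cy5 signals were 54.8 to 81.3 over a background of 32 to 37, and the number of arrays limits the precision. Genes with 2 probes were represented by the brighter. Named genes are the members, the genes of fixed lists, and the 5 most alike genes (probes well above background on all arrays, RIKEN and Gm names left out). The members and the lists were chosen with earlier results of these data known. The processed Cy3 signal had its 4 highest values on the arrays of mice 4 to 7 for 44.6% of probes, so levels were compared on normalized values. The Pitman-Morgan p-values compare the spread of Cy5 with that of Cy3 over the arrays, and those of the F test compare slides. With 1 array per mouse, differences between mice and between arrays cannot be told apart in Cy5. Alternatives are given below.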

Additional observations from a re-analysis of the deposited data

Results flagged for a closer look

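In groups of 10, chance sets about 1 in 20 genes apart by Dixon's criterion, the gap of the extreme mouse to its nearest neighbour over the whole range. Of all probes tested 5.17% were so, and of the 114 probes of named genes examined 12 were. Of these 12, 10 had mouse 2 as the extreme, at the upper end. How often mouse 2 was the extreme among all flagged probes was not counted, so this is no trait of the named genes. Mouse 2 also had the most Cy5 spots well above background, 33223 against 27349 to 31236 in the other mice. Car2 was the one member among them, with a gap of 0.786 of the range (1.44 against −0.12). The genes most alike to Car2 were set apart in the same way by construction, with 0.681 for Inhba, 0.702 for Mns1, 0.773 for Tmem25, 0.762 for Cdc14a and 0.815 for Epb4.1l4b. Krt8 (0.512), Kdm3a (0.527), Prm1 (0.57) and Prm2 (0.771) were also highest in mouse 2. Egln3, an oxygen-sensing hydroxylase, was highest in mouse 1 (0.541), and Lcn12 was highest in mouse 3 (0.548).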

How the results depend on the processing

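No paired analysis was possible because all samples belong to 1 group. More spread in Cy5 than in Cy3 was called for 14961 of 25049 probes, and for 4684 without normalization between arrays; the cause was not tested. It was 13482 to 14414 when each mouse was left out, and 10172 to 15331 under the other alternatives. The count of member probes called was 8 when any 1 mouse was left out, 7 without normalization between arrays and with the slide as a block, and 6 of the 7 that remained when both channels had to be well above background on all 10 arrays. The probe that dropped out in the first 2 cases was that of Car13. No probe was called for slide under any alternative, with 854 to 2441 at an unadjusted p under 0.05. By the looser positive and significant flag, 10 member probes in place of 7 were detected in Cy5 on all arrays. Median centring, which leaves trends with brightness in place, raised the mean log2 ratio of all 9 expressed member probes, by more than 1 SD for Car4 probe 1 (0.05 to 0.61) and Car13 (0.07 to 0.41). Car3 went from −0.99 to −0.22, and 6 means turned from below to above 0, to 0.18 for Car2, 0.13 for Car4 probe 2, 0.02 for Car5b, 0.06 for Car6, 0.21 for Car9 and 0.04 for Car12. Under it mice 4 to 7 no longer lay at one end for both probes of Car4, Car5b and Car13, and in the deposited values they no longer did so for probe 1 of Car4, while Car3, Car9 and Car12 kept that order under each alternative of the log2 ratio. Ranges of dim probes depend on the offset, with 2.44 log2 units for Car12 and 1.19 for Car6 at an offset of 0. As the mean of its 2 probes, Car4 had a range of 0.82 in place of 0.43. The range without mouse 2 and that of Cy5 alone were added after the values had been seen.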
